A study of Xenopus tropicalis with 8 samples.

Results

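The genes described here encode members of 15 families of developmental transcription factors, chosen by the start of the gene symbol (hox, sox, fox, pax, lhx, nkx, tbx, irx, gata, klf, neurod, dlx, msx, pou and the stem of six3). The array carried a probe for 69 such genes whose transcript accession matched a RefSeq gene of Xenopus tropicalis, with 3 further genes left out by rule. Of these, 36 were measured, which means that the probe stood well above background on the 4 control arrays, on the 4 DY7 arrays or on both, of 2983 measured genes with a symbol and 20289 measured probes in all. Each of the 36 genes was read by 1 probe. Total RNA of embryos of the western clawed frog was hybridised to single-colour Agilent arrays, 4 for control embryos and 4 for embryos kept in Disperse Yellow 7 (DY7) at 887 ppm, an azo dye used on synthetic textiles. Both groups carry the same stage label, embryonic stages 12 to 46, and the labels name neither a vehicle, nor a strain, nor the number of embryos in a sample. Nothing in the labels says that replicates came from separate clutches, so the p-values measure the spread between these 8 samples, part of which may be technical.

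Proteins of these families bind DNA and set the fate of cells in the embryo. Hox proteins are expressed in nested domains along the head-to-tail axis and give each level its identity. Sox, Pax, Irx, Lhx and Pou proteins and those of the six3 family act mainly in the neural plate, sense organs, neural crest and somites, while Fox, Gata, Nkx and Klf proteins pattern mesoderm, gut, blood and epithelia. Because whole embryos were extracted, fewer cells of a type and less transcript per cell cannot be told apart here.

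Detection differed between arrays and set which genes could be compared. All 36 measured genes lay well above background on all 4 DY7 arrays and on control arrays 1, 3 and 4, whereas control 2 missed 6 of them (hoxa6, hoxc5, hoxc12, foxd4l1.2, nkx3-3 and pou2f1). Those 6 therefore passed the filter through the DY7 group, which favours higher values in DY7. They enter the counts, medians and signs of the 36 genes below. Values for the 30 genes above background on all 8 arrays are therefore given too. On control 2, 51.6% of all probes were above background, against 64.0% to 75.9% on the other 7 arrays. Of the 33 genes that were not kept, 13 were above background on the other 3 control arrays and missed on control 2 (foxo4, hoxa13, hoxb8, klf15.2, klf17, nkx2-6, nkx3-2, nkx6-2, sox21, tbx4, tbx18, tbx21 and tbx22). A further 12 were not well above background on any of the 8 arrays (dlx4, foxe3, foxo6, foxq1, hoxa11, hoxd13, lhx4, lhx6, nkx1-1, nkx2-4, sox17b.2 and tbx5). The other 8 were hoxb7, hoxc3, nkx2-2, nkx6-3, klf12, msx2, pou2f2 and pou4f2. No gene of the tbx, dlx or msx family was kept, and no neurod gene was matched on the array.

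**Figure D1:**
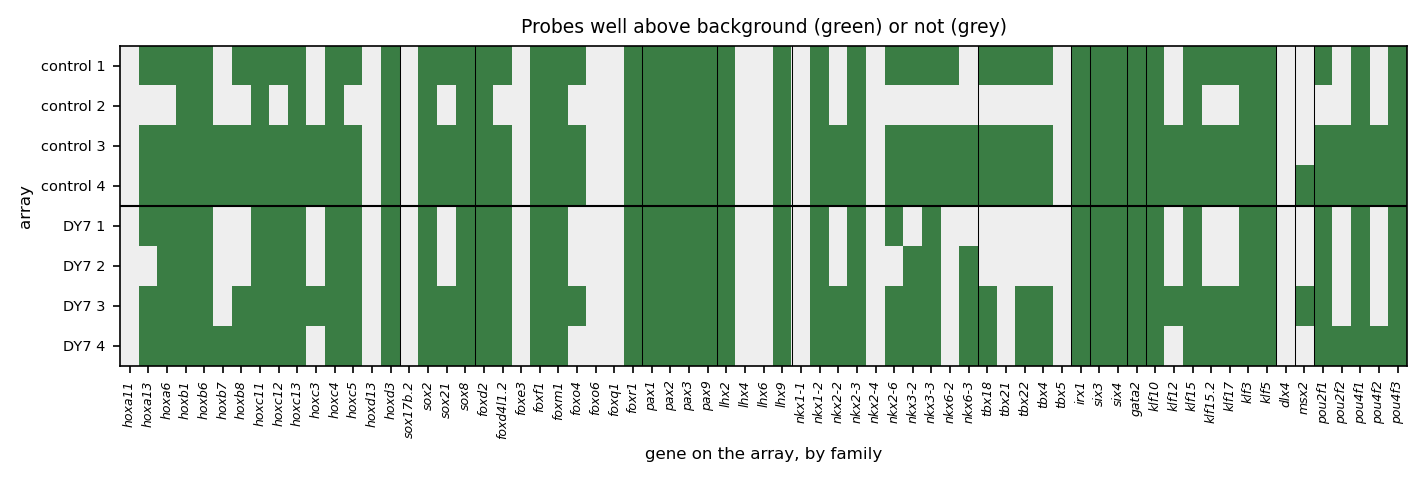
Detection of the 69 matched transcription factor genes (columns, grouped by family) on each of the 8 arrays (rows). Green marks a probe well above background and grey one that was not. The row of control 2 is the emptiest among the controls, and 12 genes are grey on all 8 arrays.

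Differences between DY7 and control embryos were small in these genes, and over the 36 genes pooled about as large as in others. The median absolute log2 fold change was 0.21 over the 36 genes, against 0.23 over all probes tested and 0.23 over named genes. It was 0.10 over the 14 genes whose probe the array design names as cross-hybridising and 0.28 over the 22 on specific probes. The absolute median of all probes was not split in this way. One gene, pax3, passed the test, and it was higher in DY7. It was 1 of 36, or 2.78%, where 14.1% of all probes tested and 13.5% of named genes were called by the same limma fit at an adjusted p under 0.05. The 36 genes were dimmer, with a median signal of 71.7 against 133 over all probes and 103 over named genes. The part of signal in the share called was not tested. No gene of the 36 was called lower, where 5.07% of all probes were, and 9.06% of all probes were called higher. Among the probes called, 64.1% were higher, and this split moved to 54.3% with quantile normalization, 43.8% with scaling to the array median and 4.73% with no scaling. Of the 36 genes, 1 was higher and 3 were lower with quantile normalization (17.9% of all probes called), and 0 and 1 with scaling to the median (11.7%). Of the 30 genes above background on all 8 arrays, fitted among 16694 such probes, 4 were called (13.3%, against 19% of these probes). There pax3 was higher, and 3 genes (hoxb6, hoxc4 and sox2) were lower, where 1310 of the 16694 probes were lower. The call rule adjusts p-values by the Benjamini-Hochberg method over all 20289 probes, and log2 fold changes are of DY7 over control. Levels are given below as log2 processed signal minus the 75th percentile of the same array, so that 0 is the signal of a probe at that percentile. They are compared between arrays for 1 probe and not between probes.

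The gene pax3 encodes a paired-box factor of the dorsal neural tube, the neural crest and muscle precursors. Controls 1 to 4 gave levels of 0.98, 1.16, 0.90 and 0.95, and DY7 1 to 4 gave 1.47, 1.60, 1.47 and 1.43. Each DY7 array lay above each control array, and control 2 was the highest control. The log2 fold change was 0.49 ± 0.10 (SE, 4 arrays in each group, as for all fold changes below), or 1.41-fold, with a limma adjusted p of 0.0144 and a 95% interval of 0.28 to 0.71. It was similar on the 2 slides on which the arrays lay, 0.46 on slide 1 and 0.52 on slide 2. The probe is one that the array design names as cross-hybridising, and which other transcripts it reads was not tested. Leaving out each array in turn gave adjusted p-values from 0.0111 to 0.0507, and the call was lost without control 4. It was lost too with scaling to the array median (log2 fold change 0.38, limma adjusted p = 0.0967) and without scaling (0.02, adjusted p = 0.972). Under 4 further settings the fold change kept its size while few probes of any kind were called. It was 0.49 with no filter on dim probes (1.71% of all probes called, pax3 limma adjusted p = 0.0608). With the planned normexp correction it was 0.47 (0.069% of all probes called, pax3 adjusted p = 0.579). Within slide 1 and slide 2, 6 and 0 probes in all were called. Under normexp with extreme local backgrounds repaired, the fold change fell to 0.35 and the call was just kept (adjusted p = 0.0499).

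Control and DY7 arrays of the same replicate number deviated together, though weakly for number 2 (correlation 0.107). This pairing was taken from the values and not from the labels. The fit was therefore also made with the replicate number as a block. With it, 6 of the 36 genes passed (16.7%), where 25.3% of all probes did. Of the 6, pax3 and foxm1 were higher and hoxb6, hoxc4, hoxc11 and sox2 were lower in DY7. The share called higher was 5.56% against 16% of all probes, and the share called lower was 11.1% against 9.25%. In the fit without the block, 4 of these genes had adjusted p-values between 0.05 and 0.1.

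The gene foxm1, a forkhead factor that switches on genes needed for entry into mitosis, stood at -1.42, -1.66, -1.24 and -1.10 on controls 1 to 4. On DY7 1 to 4 its level was -0.78, -1.06, -1.12 and -0.70. DY7 exceeded control in 4 of 4 replicate numbers, but DY7 3 lay below control 4, so that the groups overlapped slightly. The log2 fold change was 0.44 ± 0.15 (limma adjusted p = 0.0772, and 0.0378 with the replicate block). It was 0.62 on slide 1 and 0.26 on slide 2, and without scaling it was -0.03. With the planned normexp correction it fell to 0.16, and with extreme local backgrounds repaired it was 0.31.

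Among the genes lower in DY7 with the block, hoxc4 gives identity to the neck and anterior trunk levels of the axis. Its level was 1.08, 0.68, 0.81 and 1.06 on controls 1 to 4 and 0.55, 0.22, 0.34 and 0.65 on DY7 1 to 4. The groups did not overlap, and both arrays numbered 2 were the lowest of their group. The log2 fold change was -0.47 ± 0.14 (limma adjusted p = 0.0509, and 0.0137 with the replicate block), with -0.49 on slide 1 and -0.44 on slide 2. When each array was left out in turn, the limma adjusted p ran from 0.0298 without control 2 to 0.136 without control 4. The gene was called in 2 of these fits, without control 2 and without DY7 4 (limma adjusted p = 0.0417), and in none of the others. Other processing without the block also called hoxc4 lower. This held with quantile normalization (limma adjusted p = 0.0371), scaling to the median (0.0461), the authors' value table (0.0296) and probes above background on all 8 arrays (0.0364). It was not called under the remaining settings, among them no scaling (0.0868) and no filter on dim probes (0.144).

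The trunk gene hoxb6 lay between -1.70 and -1.47 on the control arrays and at -1.85, -2.20, -1.94 and -1.75 on DY7 1 to 4. The groups did not overlap, and the gap between control 1 and DY7 4 was small. The log2 fold change was -0.39 ± 0.12 (limma adjusted p = 0.0552, and 0.0486 with the replicate block), on a cross-hybridising probe. Without the block hoxb6 was called with quantile normalization (limma adjusted p = 0.0361), the authors' value table (0.0459), probes above background on all 8 arrays (0.0406) and without DY7 4 (0.0437). It was not called under the remaining settings, among them scaling to the median (0.0504) and no scaling (0.118). The gene hoxc11, which belongs to the part of the cluster used near the hindlimb and tail, stood at -1.44, -1.97, -1.65 and -1.40 on controls 1 to 4 and at -1.82, -2.44, -1.94 and -1.70 on DY7 1 to 4. Arrays numbered 2 were again the lowest of each group and the groups overlapped, although DY7 was below control in each of the 4 replicate numbers. For hoxc11 the log2 fold change was -0.36 ± 0.18 without the block (limma adjusted p = 0.203) and -0.36 ± 0.07 with it (adjusted p = 0.0256). Without DY7 2 it was -0.20. Both values depended on the background correction, as did those of foxm1 above and sox2 below. With the planned normexp correction hoxb6 read -0.29 and hoxc11 -0.26. Under normexp with extreme local backgrounds repaired, hoxb6 read -0.11 (limma adjusted p = 0.489) and hoxc11 -0.05 (adjusted p = 0.715). For hoxc4 that setting gave -0.45 (adjusted p = 0.064).

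The gene sox2 keeps neural progenitors undifferentiated. Its level was 3.23, 3.05, 3.26 and 3.15 on controls 1 to 4 and 2.98, 2.89, 2.85 and 2.77 on DY7 1 to 4. All DY7 arrays lay below all control arrays. The log2 fold change was -0.30 ± 0.10 (limma adjusted p = 0.0642, and 0.0455 with the replicate block), or 1.23-fold, with -0.20 on slide 1 and -0.39 on slide 2. With the planned normexp correction the value was -0.14, and with extreme local backgrounds repaired it was -0.35. Its probe is cross-hybridising.

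**Figure D2:**
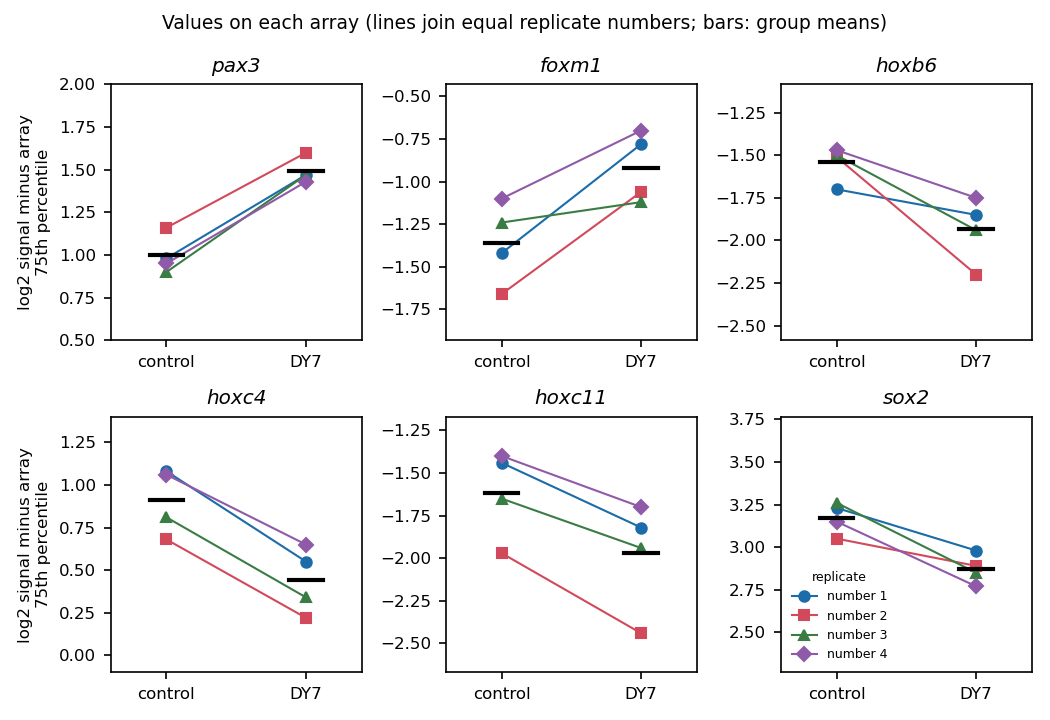
Level of the 6 genes called by the blocked fit (log2 processed signal minus the 75th percentile of the array) in control and DY7 embryos, with 1 point per array, lines joining arrays of the same replicate number and black bars at the group means; each vertical axis spans the same width. In pax3 the 4 lines rise from between 0.90 and 1.16 to between 1.43 and 1.60, and in hoxc4, hoxb6, hoxc11 and sox2 all 4 lines fall.

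Without the block, the groups did not overlap for 5 of the 36 genes (13.9%), where they did not overlap for 21.6% of all probes. Besides pax3, hoxb6, hoxc4 and sox2 this was pax2, a gene of the optic stalk, ear and kidney, which lay between -1.32 and -1.17 on control arrays and between -1.45 and -1.36 on DY7 arrays. Its log2 fold change was -0.15 ± 0.09 (limma adjusted p = 0.257).

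Under the main scaling the data bound the size of a difference in signal for most of the genes. On the 14 cross-hybridising probes other transcripts may share in that signal. Without scaling the median of the 36 genes was -0.58, so the intervals hold for the main scaling only. The 95% interval of the log2 fold change lay wholly within a 2-fold difference in either direction for 32 of 36 genes, and within a 1.5-fold difference for 20. The interval reached beyond 2-fold for hoxd3 (-1.09 to 0.10), foxd4l1.2 (0.07 to 1.39), nkx1-2 (-1.12 to 0.46) and nkx3-3 (-0.44 to 1.10). None of the 36 fitted values reached 2-fold. Such values were rare elsewhere too, at 472 of all 20289 probes and 54 of 2983 named genes. The 1st and 99th percentiles were -0.907 and 1.084 over all probes, and -0.835 and 1.021 over named genes. Their absence among 36 genes therefore does not set these genes apart. The largest fitted value among genes not called was 0.73, for foxd4l1.2.

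**Figure D3:**
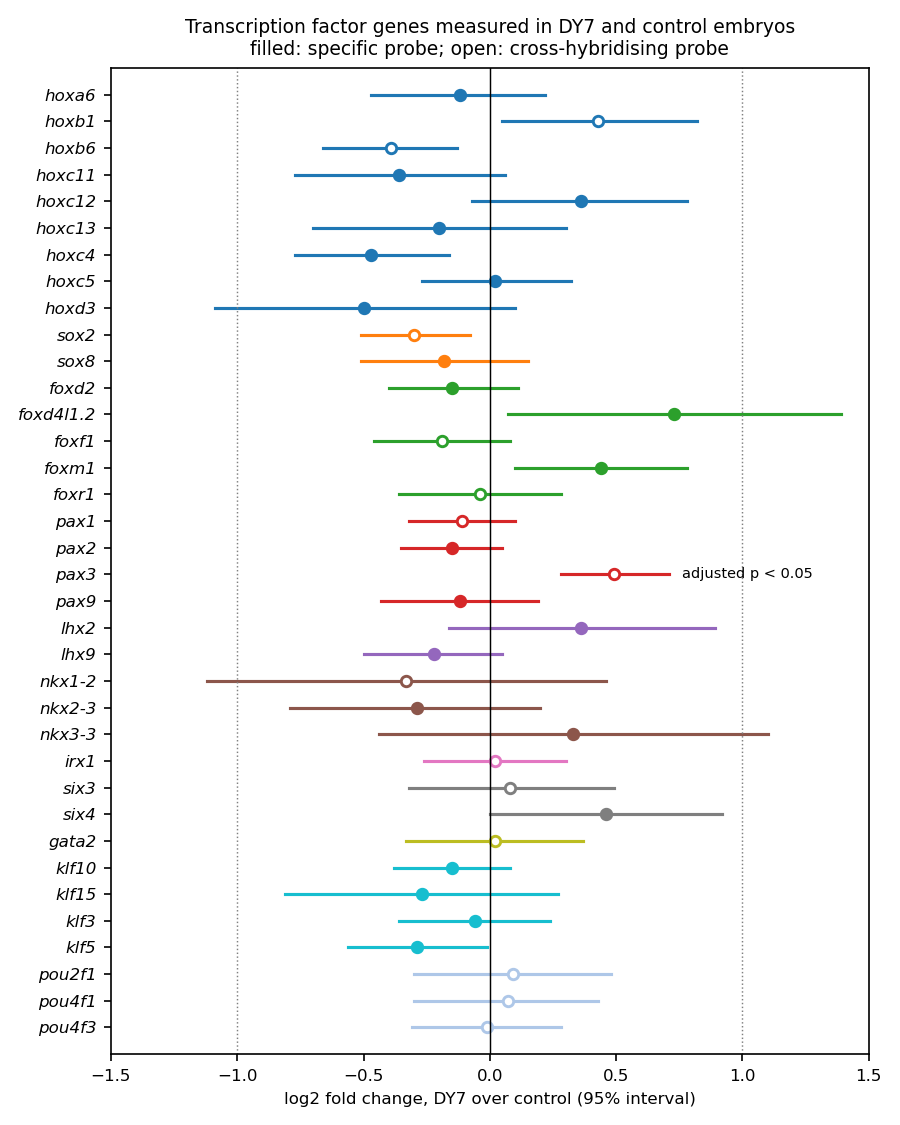
Log2 fold change of DY7 over control (point) with its 95% interval from limma (line) for the 36 measured genes, coloured by family, with filled points for specific and open points for cross-hybridising probes and dotted lines at 2-fold. The interval of pax3 runs from 0.28 to 0.71, and 4 intervals cross a dotted line.

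Over the 36 genes the median log2 fold change was -0.11, against 0.06 over all probes tested and 0.07 over named genes. It was positive for 14 genes (38.9%), where 56.8% of all probes were positive. These 14 include genes that passed the filter only through DY7. Among the 30 genes above background on all 8 arrays 30% were positive, against 52.5% of such probes, and the medians were -0.15 and 0.02. With the repaired normexp correction the median turned to 0.02 against 0.10 for all probes, and the positive shares were 61.1% and 63.6%, so that the gap in signs was small there. Over 15 other settings that could move the gap between the 2 medians, which share most of their arrays, it ran from -0.18 to -0.07, and the positive share of the 36 genes from 22.2% to 61.1%. Another scaling moved the median of all probes to -0.06 (array median) and to -0.42 (no scaling), and shifted the 36 genes by the same amount, as a constant per array must. On 22 specific probes the median was -0.15 and on 14 cross-hybridising ones it was 0.00.

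**Figure D4:**
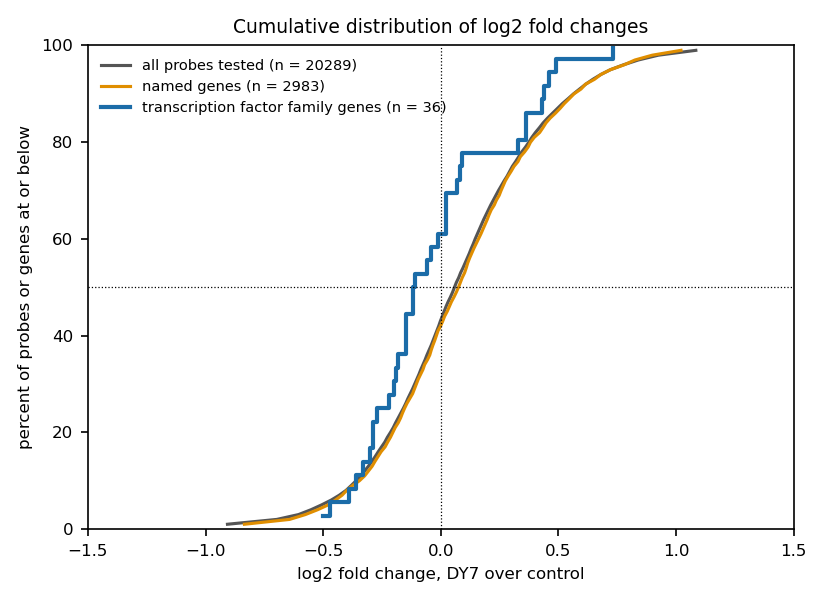
Cumulative distribution of the log2 fold change of DY7 over control (horizontal axis) for the 36 transcription factor genes (blue steps), for 2983 named genes (orange) and for 20289 probes tested (grey), with the percent of genes or probes at or below each value on the vertical axis. The blue steps cross 50 percent at about -0.11, to the left of the grey curve at 0.06.

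The hox family gave 9 measured genes of 15 matched on the array, 3 with a positive and 6 with a negative value, and a median of -0.20. None was called without the block, and the values spread from -0.50 to 0.43. Hindbrain gene hoxb1 had the highest, 0.43 ± 0.17 (limma adjusted p = 0.113), with levels of -0.66, -0.91, -0.24 and -0.66 on controls 1 to 4 and -0.29, -0.03, 0.08 and -0.49 on DY7 1 to 4. DY7 was above control in all 4 replicate numbers, and control 3 lay among the DY7 arrays. The lowest value was that of hoxd3, a gene of the hindbrain and neck, at -0.50 ± 0.27 (adjusted p = 0.217). It rested on control 2, where hoxd3 stood at 1.33 against -0.02 to 0.17 on the other 3 control arrays and -0.21 to 0.09 on the DY7 arrays. Without control 2 its log2 fold change was -0.19 (adjusted p = 0.275).

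Hox genes were also split by their place along the axis. The 6 genes of paralogue groups 1 to 8, used from the hindbrain to the trunk, had a median of -0.26. The 3 of groups 9 to 13, used in the posterior body, had -0.20. Of these genes hoxa6, hoxc5 and hoxc12 passed the filter through DY7, so no likeness or difference is drawn from the 2 medians. The genes hoxc11 and hoxc12 lie next to each other in the reference gene order of the c cluster, and read -0.36 ± 0.18 and 0.36 ± 0.19. On hoxc12 the level was low, -3.50 to -3.04 on control arrays and -3.44 to -2.60 on DY7 arrays. The remaining hox genes stood near 0, with hoxc13 at -0.20 ± 0.22, hoxa6 at -0.12 ± 0.15 and hoxc5 at 0.02 ± 0.13. DY7 2 was the lowest DY7 array for 5 of the 9 hox genes, and control 2 the lowest control array for 6. The hox median was negative in 16 of 18 other settings, leaving out those that keep each fold change as it is. It was 0.00 with the repaired normexp correction and 0.01 without DY7 2. Over the 6 hox genes above background on all 8 arrays it was -0.37.

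In the fox family 5 of 9 matched genes were measured, 2 positive and 3 negative. Their median was -0.04 and was positive in 4 of these 18 settings. It was 0.44 on the 3 specific probes, but these include foxd4l1.2, which passed the filter through DY7. Over the 4 fox genes above background on all 8 arrays it was -0.09. The gene foxd4l1.2, which acts in early neural ectoderm in Xenopus, varied most: -2.65, -2.72, -1.89 and -2.24 on controls 1 to 4 and -2.37, -1.08, -1.24 and -1.91 on DY7 1 to 4. DY7 2 and DY7 3 were high, whereas DY7 1 and DY7 4 lay within the range of the controls. Its log2 fold change was 0.73 ± 0.29 (limma adjusted p = 0.119), and 0.97 with an adjusted p of 0.0481 without DY7 1. The gene was above background on 3 of 4 control arrays and so passed the filter through DY7, where it was higher. That call therefore supports nothing further. The bright gene foxf1 of visceral mesoderm read -0.19 ± 0.12, foxd2 -0.15 ± 0.11 and foxr1 -0.04 ± 0.14.

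All 4 pax genes matched on the array were measured, the genes left out by rule aside. Apart from pax3 they were close to 0 and slightly negative. The sclerotome and pharyngeal pouch genes pax1 and pax9 read -0.11 ± 0.09 and -0.12 ± 0.14, and pax2 was given above. The pax median was -0.11, and 0.01 with the repaired normexp correction.

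Neural and sensory genes of the other families gave no call. The neural crest gene sox8 stood at -0.18 ± 0.15, with DY7 below control in each replicate number. In the lhx family, the eye and forebrain gene lhx2 read 0.36 ± 0.23 and lhx9, which had the smaller p, -0.22 ± 0.12 (limma adjusted p = 0.230). On control arrays lhx2 was split, at -2.91 and -2.79 on arrays 1 and 4 against -2.02 and -2.06 on arrays 2 and 3. The placode and muscle precursor gene six4 read 0.46 ± 0.21 (adjusted p = 0.150), with levels of -2.08, -2.31, -1.58 and -2.09 on controls 1 to 4 and -1.63, -1.30, -1.25 and -2.03 on DY7 1 to 4. DY7 4 stood at the level of the controls. The forebrain and lens gene six3 read 0.08 ± 0.18 and irx1, a gene of neural and kidney patterning, 0.02 ± 0.12. In the pou family the sensory neuron genes pou4f1 and pou4f3 read 0.07 ± 0.16 and -0.01 ± 0.13, and the broadly expressed pou2f1 0.09 ± 0.17. The median of these 3 was 0.07 and was negative in 8 of the 17 settings that gave a value.

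Genes of mesoderm, gut, blood and epithelia were not called either. The 4 measured klf genes were all negative, with a median of -0.21 that lay between -0.68 and -0.05 in those 18 settings. The gut epithelial gene klf5 had the smallest p of this family, at -0.29 ± 0.12 (limma adjusted p = 0.139), with 0.83, 0.44, 0.65 and 0.41 on controls 1 to 4 and 0.45, 0.15, 0.30 and 0.30 on DY7 1 to 4. DY7 was lower in 4 of 4 replicate numbers, and DY7 1 lay above control 2 and control 4. The others were klf15 (-0.27 ± 0.24), klf10 (-0.15 ± 0.10) and klf3 (-0.06 ± 0.14). The blood progenitor gene gata2 read 0.02 ± 0.16.

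In the nkx family 3 of 10 matched genes were measured, with a median of -0.29 that was positive in 4 of the 18 settings. Among these genes 2 had the largest spread of all 36 within DY7. The posterior neural plate gene nkx1-2 lay at -1.10, -2.55, -3.02 and -2.35 on DY7 1 to 4 (SD 0.82) against -2.19 to -1.64 on control arrays. For nkx3-3, a gene of the head cartilage in Xenopus, the value on DY7 3 was -0.91 and those on the other DY7 arrays were -2.63 to -2.24 (SD over the 4 arrays 0.79). DY7 1 was thus the high array for the former and DY7 3 for the latter. Their log2 fold changes were -0.33 ± 0.35 and 0.33 ± 0.34. The gut and pharyngeal gene nkx2-3 had the smallest p of the family, -0.29 ± 0.22 (limma adjusted p = 0.368). It was high on control 2 (1.08, against 0.00 to 0.24 on the other controls), and without that array the value was -0.06.

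**Figure D5:**
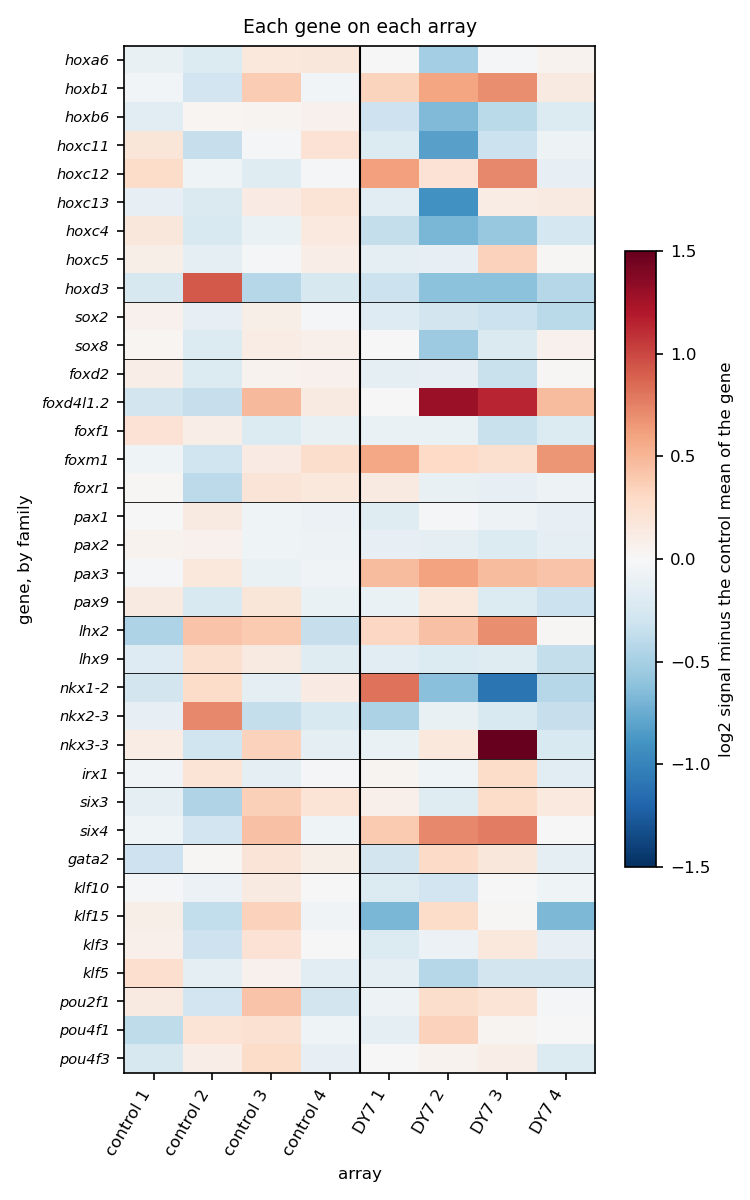
Level of each of the 36 genes on each array, as log2 signal minus the control mean of that gene (red above, blue below), with the arrays in columns and the genes in rows by family. The row of pax3 is red on all 4 DY7 arrays, hoxd3 and nkx2-3 are red on control 2, and nkx3-3 is red on DY7 3.

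Across the 36 genes the median SD was 0.22 over control arrays and 0.19 over DY7 arrays, against 0.18 in each group for all probes. The SD exceeded 0.5 for 1 gene among controls, hoxd3, and for 3 genes in DY7, foxd4l1.2, nkx1-2 and nkx3-3. Control 2 was the lowest control array for 20 of the 36 genes and the highest for 9.

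Among the 33 genes that were not kept, tbx21 stood out, a choice made after its values were seen. This gene encodes a T-box factor known in mammals for its part in T helper cells. It was well above background on control arrays 1, 3 and 4 and on no DY7 array, with levels of -3.55, -2.79, -3.61 and -3.95 on controls 1 to 4 and -4.69, -5.38, -4.80 and -4.68 on DY7 1 to 4. Control 2 had the highest level and was the control array that missed the background test. Since no DY7 array measured the probe, its DY7 level was set to the lowest of any probe well above background, a mean of -4.04. Such a bound is not strict, as control 2 missed the background test at -2.79. Over the 3 control arrays that measured tbx21, the ratio of control to that bound was 1.26. With control 2 in the control mean the ratio was 1.48 (means of all 4 arrays -3.47 in control and -4.89 in DY7). With no filter on dim probes, when 1.71% of all probes were called, it was the 1 gene of 69 to be called (limma adjusted p = 0.0499). That fit used control 2 and DY7 values that were not well above background. The gene nkx6-2 had the same detection pattern, and its log2 fold change with no filter was 0.03. Detection on control arrays alone therefore does not show a decrease.

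Other developmental regulators were compared with the same fit through 2 wider lists. Of 39 measured genes for other developmental transcription factors, prdm15 was called higher (1.25 ± 0.35, limma adjusted p = 0.0420) and neurog3, which drives endocrine progenitors of the pancreas, lower (-0.47 ± 0.12, adjusted p = 0.0298). Their median was 0.12. Calls were thus no more frequent than over all probes (9.06% higher and 5.07% lower). With the replicate block 6 were higher and 2 lower, where 16% and 9.25% of all probes were. The gene prdm15 read 1.91 on slide 1 and 0.60 on slide 2. It was above background on 3 of 4 control arrays and so passed the filter through DY7, the group in which it was called higher, so that its call supports nothing further. The probe of neurog3 is cross-hybridising. Of 24 embryonic signalling genes, rarg, a receptor for retinoic acid, which controls hox genes in the hindbrain, was lower (-0.69 ± 0.11, adjusted p = 0.00773) on a cross-hybridising probe. Lower too was bmpr2, a type II receptor for bone morphogenetic proteins (-0.46 ± 0.11, adjusted p = 0.0275). The median of this list was 0.23. With the block 4 were higher and 2 lower, 6 of 24 where 25.3% of all probes passed. The call of rarg was kept when any 1 array was left out. Those of prdm15 and bmpr2 were lost without control 1, control 4, DY7 1, DY7 2 or DY7 3, and that of neurog3 without control 1, control 3, control 4, DY7 2 or DY7 3.

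Some tissue markers were called as well, where 14.1% of all probes tested were. The tissue lists were chosen with earlier results of these data known, so the number of calls in them supports nothing further. In lists for 9 tissues, 14 genes in 7 lists were measured, and no gene of the skeletal muscle or the cartilage and notochord list was matched. Both lens crystallin genes were lower (cryga.1 -2.13 and cryga.7 -1.47), as were nefl among 2 neural genes (-0.48) and the epidermal krt78.6 (-0.46). All 3 gut and liver genes were higher (fabp6 1.20, serpina1 0.75, apob 0.55), as was epor of 2 erythroid genes (0.41). The other erythroid gene also read 0.41 but was not called. With the replicate block both erythroid genes were called higher, where 16% of all probes were. Neither of 2 heart genes nor of 2 retina genes was called. The part of tissue makeup in the values of the transcription factor genes was not tested.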

How the data were processed

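The 4 control and 4 DY7 arrays were grouped and numbered by their titles and lay on 2 slides, each with 2 arrays of each group. The deposited scanner files give intensity per spot on a linear scale, corrected for background and trend within each array by Agilent Feature Extraction, per the file headers, which give version 10.7.3.1 for slide 1 and 10.7.1.1 for slide 2. The authors also deposited a value table in log2. Set against log2 of the scanner signal, each of its columns correlated at 0.987 to 1. Its medians were 5.10, 5.27, 5.16 and 5.12 for controls 1 to 4 and 5.19, 5.17, 5.18 and 5.19 for DY7 1 to 4. The scaling between its arrays stays unknown. The flags for background, saturation and outliers were set by that software, per the file headers.

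Control spots (1417 of 45220) and flagged outlier spots were dropped, spots of a probe were averaged as log2, and the 75th percentile of each array (126 to 327 in signal) was subtracted. No spot was saturated. Of 32899 probes 20321 passed the filter, and 32 of these lacked a value on an array, which left 20289. Accessions were matched to the RefSeq gene table of UCB_Xtro_10.0 for names (17.9% of probes), and no coordinates are given. Groups were compared with limma 3.58.1 in R 4.3.3. The script was tested on simulated data. Array number limits the precision.

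Members and lists were chosen with earlier results of these data known. Named genes are all members, tbx21, and called genes of the lists for other regulators and tissues. Left out of the lists by function were herc3, twistnb, rars2, smox, bmp2k and tgfbrap1. The files hold no mean signal column, so normexp was run on the median signal (offset 50), and again after 91 local backgrounds over 2 times the array median had been set to that median. Deviations from group means correlated between same-numbered arrays at 0.306, 0.107, 0.455 and 0.449 for numbers 1 to 4, each over 0.1, so the numbers were taken as pairs. The highest correlations with an array of another number were 0.237, 0.0119, 0.305 and 0.0362. The sources used here hold no sequences of these probes or genes.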

Additional observations from a re-analysis of the deposited data

Results flagged for a closer look

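In 4 of the 72 sets of 4 arrays (36 genes, 2 groups) one array lay far from the other 3, where about 4 would do so by chance. On control 2, hoxd3 was high at 1.33 (next array 0.17) and foxd2 was low at -0.84 (next array -0.58). On DY7 2, hoxa6 was low at -2.95 (next array -2.46). On DY7 1, foxr1 was high at -0.44 (next array -0.65). Of these 4 genes, none was called with or without the array concerned.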

How the results depend on the processing

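Counts are of the 36 transcription factor genes, then of the 39 other factors and the 24 signalling genes. In the main analysis 1 of the 36 was higher and 0 lower, with a median of -0.11. With the replicate number as a block, which also stands above, 6 of the 36 passed (2 higher, 4 lower), with 6 higher and 2 lower among other factors and 4 higher among signalling genes. Quantile normalization gave 4 of 36 (1 higher, 3 lower, 11.1% against 17.9% of all probes), and 0 higher and 3 lower among other factors; the authors' deposited table gave 3 (2 lower, 8.33% against 20.2% of all probes), and 2 other factors lower. Probes above background on all 8 arrays gave 4 of 30 (3 lower, 13.3% against 19% of probes) and 1 signalling gene higher. Scaling to the median gave 0 higher and 1 lower (hoxc4), a median of -0.23 and 2 other factors lower. Without scaling 0 of 36 passed (3.54% of probes), the median was -0.58, foxm1 turned to -0.03, and 0 other factors were higher and 1 signalling gene lower. The planned normexp correction left 0 genes in each set, at 14 probes in all. The repaired one called 7.38% of all probes and kept pax3 (limma adjusted p = 0.0499). It moved the median to 0.02 and left 0 other factors higher. With no filter 0 of 36 and 0 other factors passed (1.71% of probes), and 1 signalling gene was lower. Within slide 1 and within slide 2, 2 arrays against 2, 0 genes passed in each set, at 6 and 0 probes in all. On specific probes 0 of 22 passed, where 14% of such probes did, 0 other factors were lower and 1 signalling gene was. Adjusting over named genes, averaging probes of a gene and the slide as a block left each count as it was. Leaving out 1 array gave 0 to 3 of 36 (0 to 2 higher, 0 to 2 lower, where 5.38% to 16.4% of all probes passed), medians of -0.13 to -0.06, 0 to 2 other factors higher and 0 to 2 lower, and 0 to 3 signalling genes higher and 1 to 2 lower. The count was 0 without control 4, and 3 without control 2 (adding hoxc4 and sox2) or DY7 4 (adding hoxb6 and hoxc4). It was 2 without DY7 1, adding foxd4l1.2, which passed the filter only through DY7. The causes were not tested. Low signal limits the 6 genes that control 2 missed and all that were not kept.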
